A study of Mus musculus with 34 samples.

Results

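The HOXB and HOXC clusters are groups of neighbouring Hox genes on mouse chromosomes 11 and 15, and the 7 genes followed here are Hoxb1, Hoxb2, Hoxb3, Hoxb4, Hoxc6, Hoxc8 and Hoxc9. Each cluster was read over a span from 100 kb before the first to 100 kb after the last start of its listed genes. A start is the point, summit plus or minus the stated distance, on which at least 2 peaks of the deposited peak tables agreed. The spans held 228 of the 354733 rows of the 30 lists, 112 in the Hoxb span and 116 in the Hoxc span. Of these, 43 were peaks of tagged coactivators, 53 were peaks of control libraries, and the rest were histone mark regions, 65 in the Hoxb span and 67 in the Hoxc span.

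Hox genes encode homeodomain transcription factors that give cells their position along the body axis. Genes at one end of a cluster are used towards the head and those at the other end towards the tail, which is called collinearity. Where a Hox gene is silent, Polycomb complexes cover its chromatin with H3K27me3, and retinoic acid, CDX factors and trithorax proteins act on the opposite side. Forebrain lies in front of the domain in which Hox genes are used, whereas hindbrain, neural tube and limb contain cells that use them.

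The tissues were taken at embryonic day 11.5. FLAG-tagged SMARCA4, the motor subunit of the BAF remodeler, was profiled with an anti-FLAG antibody in 4 brain and cord tissues (forebrain, midbrain, hindbrain and neural tube), in limb, heart and face, and in embryonic stem cells (ESC). The partner subunit SMARCC2 was profiled in face and hindbrain, the histone acetyltransferase EP300 in face and ESC, and NCOA1 and NCOA2, which coactivate nuclear receptors, in hindbrain. All FLAG samples were 129/C57BL/6, and their genotype tag reads SMARCA4/FLAG knock-in also on samples of the other tagged proteins. H3K4me1, H3K4me3 and H3K27me3 in limb and forebrain, and H3K27ac in limb, came from CD1 mice that carried no stated allele. Tissue was pooled from both sexes and, where a number is given, from about 150 or about 300 embryos, so a list averages over all cell types of a tissue. Fewer cells that carry a factor and less of it in each cell cannot be told apart. Every group had 1 library, so no value has a replicate check and no test was made. One label was unclear, since the SMARCA4 sample titled hindbrain carries a forebrain tag. It was kept as hindbrain after its title, and the counts of SMARCA4 peaks and regions in the spans are also given without it. The 6 control lists belong to samples called input controls, and 4 further SMARCA4 controls (of limb, neural tube, forebrain and heart) were not analysed here. Positions are in mm9, as the files give them.

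Of the 7 genes, 5 had an exact start. Hoxb1 (uc007lbz.1), which sets the identity of a hindbrain rhombomere, lay at position 96227071 of chromosome 11, on which 8 peaks agreed. Hoxb2 (uc007lby.1) lay at 96212945 and Hoxb3 (uc007lbw.1) at 96184439, and both pattern the hindbrain and its motor nerves. The Hoxc6 start was 102829144 for one transcript (uc007xxc.1) and 102839992 for another (uc007xxd.1), both on chromosome 15, and Hoxc9 (uc007xxa.1) lay at 102807462. Hoxc6, Hoxc8 and Hoxc9 act in trunk and spinal cord, where they set motor neuron and vertebral identity. Hoxc8 was the nearest gene of 1 peak only, which leaves its start at 102820969 or 102821199. No table row named Hoxb4, so it has no start and is in no count of starts. The spans were therefore chr11:96084439-96327071, of 243 kb, and chr15:102707462-102939992, of 233 kb. The member starts lay within 42.6 kb of each other in Hoxb and within 32.5 kb in Hoxc. Other genes of the clusters with a start in the spans were Hoxb6, Hoxb9, Hoxc4, Hoxc5, Hoxc11, Hoxc12 and Hoxc13, and Hoxc10 was bracketed like Hoxc8.

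The sequence around the Hoxb1 start is shown because it was the member start that peaks of the most tissues covered. HOXB1 with its partner PBX is known to bind its own upstream DNA at sites of the form TGATNNAT. The sequence is from RefSeq (GRCm38.p6, plus strand, chr11:96365508-96365807), from 250 bases before to 50 after the RefSeq start, a build that differs from mm9, and was not aligned to the mm9 point. Capitals mark matches, on either strand, to TGATNNAT, to the CCAAT box (CCAAT), to the TATA box (TATAAA) and to the nuclear receptor element (AGGTCA).
Hoxb1: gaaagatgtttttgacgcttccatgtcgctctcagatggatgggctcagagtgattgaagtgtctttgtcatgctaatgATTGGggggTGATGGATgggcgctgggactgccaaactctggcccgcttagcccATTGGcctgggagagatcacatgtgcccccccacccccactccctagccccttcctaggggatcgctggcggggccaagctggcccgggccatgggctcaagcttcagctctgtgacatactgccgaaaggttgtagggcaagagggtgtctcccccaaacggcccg
Hoxb4: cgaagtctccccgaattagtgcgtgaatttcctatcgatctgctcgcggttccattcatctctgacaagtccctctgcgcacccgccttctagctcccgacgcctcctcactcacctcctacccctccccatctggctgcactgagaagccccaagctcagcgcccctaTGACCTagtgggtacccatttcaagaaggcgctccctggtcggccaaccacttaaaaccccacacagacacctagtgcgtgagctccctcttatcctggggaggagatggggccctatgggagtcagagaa

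Hoxb4 (plus strand, chr11:96318017-96318316) is printed as the member the lists do not place, and of the 7 members only these 2 were matched in the RefSeq promoter table. The Hoxb1 window held 1 TGATNNAT match, at position -162 from the start, and 2 CCAAT matches. The Hoxb4 window held neither, and had 1 AGGTCA match, at -81. No TATAAA was in either window. Of 32851 mouse promoters of this length, 8.85% held TGATNNAT, 37.4% CCAAT, 13.6% TATAAA and 16.3% AGGTCA. Hoxb1 had 10 CG pairs and Hoxb4 14, against a median of 7, and 43.5% and 36.3% of promoters had as many or more.

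The histone lists gave the widest signal. In limb, H3K27me3 covered 65.3% of the Hoxb span and 79.7% of the Hoxc span, against 1.74% of all chromosomes. In forebrain it covered 34.3% and 56.2%, against 0.724%. Between the first and last member start, limb H3K27me3 covered 88.8% of Hoxb and 100% of Hoxc, and forebrain H3K27me3 covered 56.1% and 99.1%. Between the first and last placed start of Hoxa and Hoxd, limb H3K27me3 covered 61.5% and 34.6%. Forebrain H3K27me3 covered 70.9% and 59.7% there, so Hoxb was the lowest in forebrain by this measure. The limb list covered more of all chromosomes than the forebrain list, so the limb and forebrain shares are not on 1 scale. No input region of limb or forebrain fell in either span. The input lists held only 1484, 709 and 495 regions (0.563, 0.269 and 0.188 per Mb), so this cannot serve as a check.

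**Figure D1:**
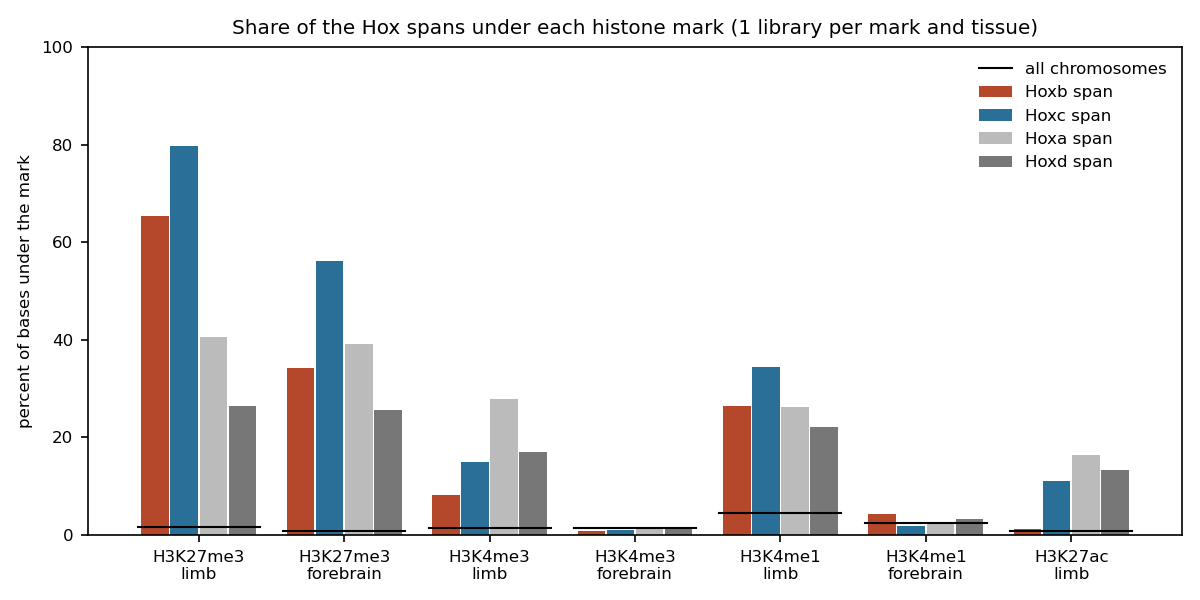
Percent of bases under each histone mark (vertical axis) in the Hoxb, Hoxc, Hoxa and Hoxd spans (bars), with the share of all chromosomes as a black line, from 1 library per mark and tissue. H3K27me3 of limb reaches 65.3% of the Hoxb and 79.7% of the Hoxc span. Forebrain H3K4me3 is under the line in Hoxb, Hoxc and Hoxa, and just above it in Hoxd.

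The same measure in the other Hox clusters was lower for limb H3K27me3, at 40.5% of the Hoxa span and 26.5% of the Hoxd span. Those spans were built from all placed genes of their cluster and were 303 and 265 kb long. The flanks of the Hoxb and Hoxc spans still held other Hox genes, such as Hoxb9 and Hoxc12, so the spans are not fully alike. Forebrain H3K27me3 covered 39.2% of Hoxa and 25.6% of Hoxd, values that bracket the 34.3% of Hoxb. The order was different for H3K4me3 of limb, which covered 8.22% of Hoxb, 15.0% of Hoxc, 17.1% of Hoxd and 27.9% of Hoxa, against 1.48% of all chromosomes. H3K27ac of limb covered 1.18% of Hoxb, close to the 0.920% of all chromosomes, but 11% of Hoxc, 13.3% of Hoxd and 16.4% of Hoxa. H3K4me1 of limb covered 26.5% of Hoxb, 34.4% of Hoxc, 26.2% of Hoxa and 22.1% of Hoxd, against 4.46% of all chromosomes. In forebrain H3K4me1 covered 4.22% of Hoxb, 1.85% of Hoxc, 2.22% of Hoxa and 3.25% of Hoxd, against 2.48% of all chromosomes. Forebrain H3K4me3 covered 0.809% of Hoxb, 1.10% of Hoxc, 1.37% of Hoxa and 1.53% of Hoxd, against 1.46%.

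The breadth came from a few very wide regions. The widest of all 13137 limb H3K27me3 regions was the 142 kb region chr15:102733235-102874838. It took in Hoxc13, Hoxc12, Hoxc11, Hoxc10, Hoxc9, Hoxc8, Hoxc6, Hoxc5 and Hoxc4. The one next in width was the 109 kb region chr11:96110467-96219092, which ran from the AK078566 start past Hoxb9, Hoxb6 and Hoxb3 to beyond Hoxb2. By the RefSeq order of the genes, Hoxb4 lies between Hoxb6 and Hoxb2 and so within it. The region after these in width was 76.2 kb wide and the median of the list was 2052 bp. Hoxb1 stood under a region of its own, 15.1 kb wide (chr11:96223875-96238931), at rank 38 of the list against rank 169 for the wider one, taking 1 as the highest rank.

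In forebrain the widest of 11073 regions was again in Hoxc. It was 57.0 kb wide (chr15:102807760-102864713), had rank 6, and ran from 298 bp past the Hoxc9 start to the Hoxc4 start. Hoxc11 lay in a region of 12.8 kb with rank 7. Hoxb3 lay in a 25.1 kb region, Hoxb6 in one of 31.0 kb and Hoxb1 in one of 13.6 kb. The starts of Hoxb2, 6.20 kb from the nearest forebrain region, and Hoxc12, at 6.35 kb, lay between regions. Where regions of the list were joined over gaps of up to 5 kb, the widest forebrain region of Hoxb was 58.0 kb wide and became the widest of the list, and the Hoxc region moved from 1 to 3 in that order. In limb the order of 1 for Hoxc and 2 for Hoxb stayed. Of the forebrain H3K27me3 bases, 98.8% in Hoxb and 93.4% in Hoxc also lay under limb H3K27me3, against 68.2% in Hoxa and 46.9% in Hoxd. Limb H3K27me3 covered 65.3%, 79.7%, 40.5% and 26.5% of these spans, so such overlap is partly given by its breadth.

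**Figure D2:**
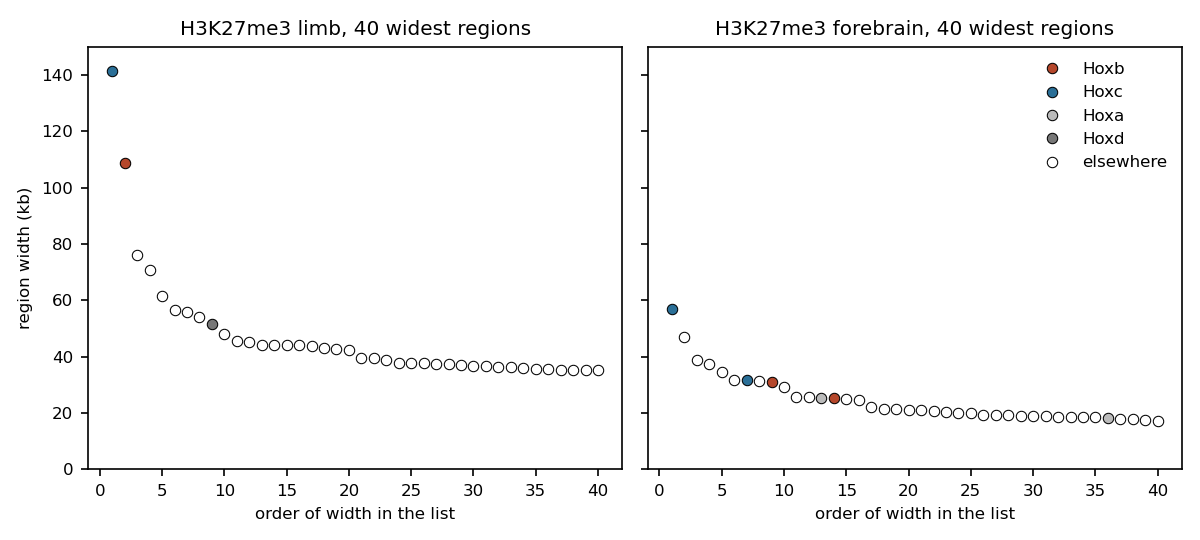
Width in kb of the 40 widest H3K27me3 regions of the limb list (left) and of the forebrain list (right), by their order, with regions of the 4 Hox clusters filled. The Hoxc region (142 kb) and the Hoxb region (109 kb) stand first in limb, and a Hoxc region (57.0 kb) stands first in forebrain.

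At the starts of single genes the limb marks overlapped. All 5 placed members lay within 1 kb of limb H3K27me3, against 29.0% of 16025 genes with a start. Shares of all genes, here and below, are over these 16025 genes. A gene had a start only where at least 2 peaks of the deposited tables agreed on one. In forebrain 4 of 5 did (all but Hoxb2), against 18.9%. Limb H3K4me3 stood at 4 of 5 (Hoxb1, Hoxb2, Hoxc6 and Hoxc9), near the 74.6% of all genes, and forebrain H3K4me3 at 0 of 5, against 73.3%. H3K4me3 and H3K27me3 were both at 4 of 5 starts in limb, against 25.5% of genes, and at 0 of 5 in forebrain, against 16.8%. Limb H3K4me1 was at 4 of 5, against 71.4%, and forebrain H3K4me1 at 0 of 5, against 61.2%. Hoxb3 was the placed member without H3K4me3 in limb, and its nearest region lay 8.65 kb away. With 5 genes a share moves in steps of 1 gene, so these counts describe the genes named and no more.

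H3K27ac of limb stood at fewer of the member starts than H3K4me3 did. It was within 1 kb of Hoxc6 and Hoxc9, 2 of 5 members, against 55.0% of all genes, and of no placed Hoxb member. Its 8 regions in the Hoxc span ran from 4.12 kb before AK035706, a transcript between Hoxc12 and Hoxc11, through Hoxc11 to Hoxc6. The widest was 9.88 kb (chr15:102789808-102799686), 22 in order of width among 17188 regions. It covered the bracketed Hoxc10. No H3K27ac region came within 1 kb of Hoxc13, Hoxc12, Hoxc5 or Hoxc4, nor of the bracketed Hoxc8, from which the nearest lay 7.85 kb away. In the Hoxb span there were 3 regions, of 0.560 to 1.39 kb, at the AK078566 start, 9.49 kb from Hoxb3 and 2.40 kb from Hoxb2.

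These acetylated regions lay inside the Polycomb regions. All 3 of Hoxb and all 8 of Hoxc, 100% of their bases, were under limb H3K27me3, as were all 13 and 15 H3K4me3 regions of limb. In Hoxa 39.9% of H3K27ac bases and 58.4% of H3K4me3 bases were under limb H3K27me3, and in Hoxd 90.3% and 67.9%. Limb H3K27me3 itself covered 65.3% of the Hoxb, 79.7% of the Hoxc, 40.5% of the Hoxa and 26.5% of the Hoxd span. Overlap with so broad a mark is partly given by its breadth. Whether the marks sit in the same cells of the pooled limb was not tested. Of the limb H3K27ac bases of Hoxc, 69.7% were under forebrain H3K27me3, and of those of Hoxb 19.5%. The 2 forebrain H3K4me3 regions in each span included none at a member start. In Hoxc one lay 4.24 kb past Hoxc9, where limb H3K4me3, H3K27ac and a midbrain control peak also stood.

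**Figure D3:**
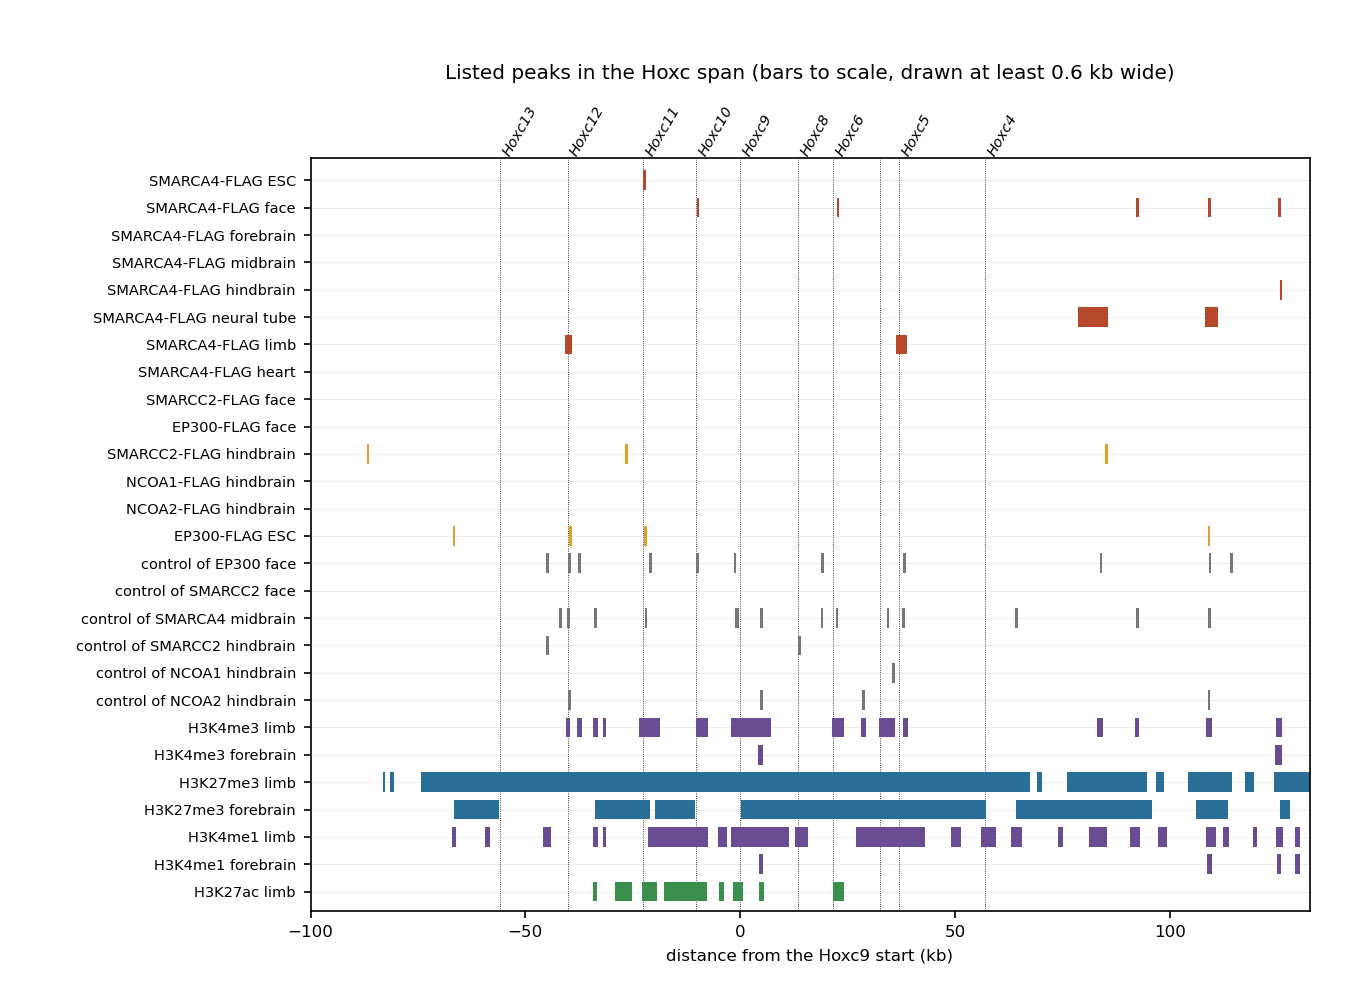
Peaks and regions of every list in the Hoxc span (rows) by distance in kb from the Hoxc9 start, with dotted lines at gene starts and, for the bracketed Hoxc8 and Hoxc10, at the lower candidate. Limb H3K27me3 is nearly unbroken from Hoxc13 to Hoxc4, H3K27ac stands from between Hoxc12 and Hoxc11 to Hoxc6, and the neural tube SMARCA4 peaks lie beyond Hoxc4.

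SMARCA4 peaks were fewer than histone mark regions, of which the spans held 65 and 67. Their median width in a span differed by list, from 125 bp (ESC, in Hoxc) to 5000 bp (neural tube, in Hoxc). Over the 8 lists the Hoxb span held 16 and the Hoxc span 11, and without the hindbrain list 15 and 10. Face gave 10 in Hoxb, which is 0.0285% of its 35099 peaks (exact 95% interval 0.0137 to 0.0524%, counting error only), and 5 in Hoxc. This is 41.2 and 21.5 peaks per Mb, against 13.3 over all chromosomes. Neural tube gave 4 and 2 (16.5 and 8.60 per Mb, against 5.45). Limb gave 0 in Hoxb and 2 in Hoxc (8.60 per Mb, against 1.99). Hindbrain gave 1 in each span (4.12 and 4.30 per Mb, against 2.07). Forebrain gave 1 in Hoxb (4.12 per Mb, against 2.79) and ESC 1 in Hoxc (4.30 per Mb, against 2.56). Midbrain and heart gave none, of lists of 1513 and 13755 peaks (0.574 and 5.22 per Mb over all chromosomes). The lists differ in length by over a factor of 10 and the face list is the longest, so counts of tissues are not on 1 scale. When every list was limited to its first 1513 peaks, 0 remained in Hoxb and 1 in Hoxc.

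The control lists held more peaks here than the SMARCA4 lists. They had 22 in the Hoxb span and 31 in the Hoxc span. The control of EP300 face had 10 and 11, or 41.2 and 47.3 per Mb against 11 over all chromosomes. The control of SMARCA4 midbrain had 6 and 13, or 24.7 and 55.9 per Mb against 7.50. Of the 16 SMARCA4 peaks in Hoxb 8 overlapped a control peak, and of the 11 in Hoxc 8 did, so 8 and 3 remained without. In neural tube and limb every SMARCA4 peak of the spans overlapped one, and in face 3 of 10 in Hoxb and 4 of 5 in Hoxc did. Neural tube and limb peaks are wide (list medians 2250 and 2300 bp, against 489 bp in face), and wide peaks overlap others more readily. The share of each whole list over a control peak is not given here, so these counts describe the spans only. The part of the control signal in these SMARCA4 peaks was not tested.

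**Figure D4:**
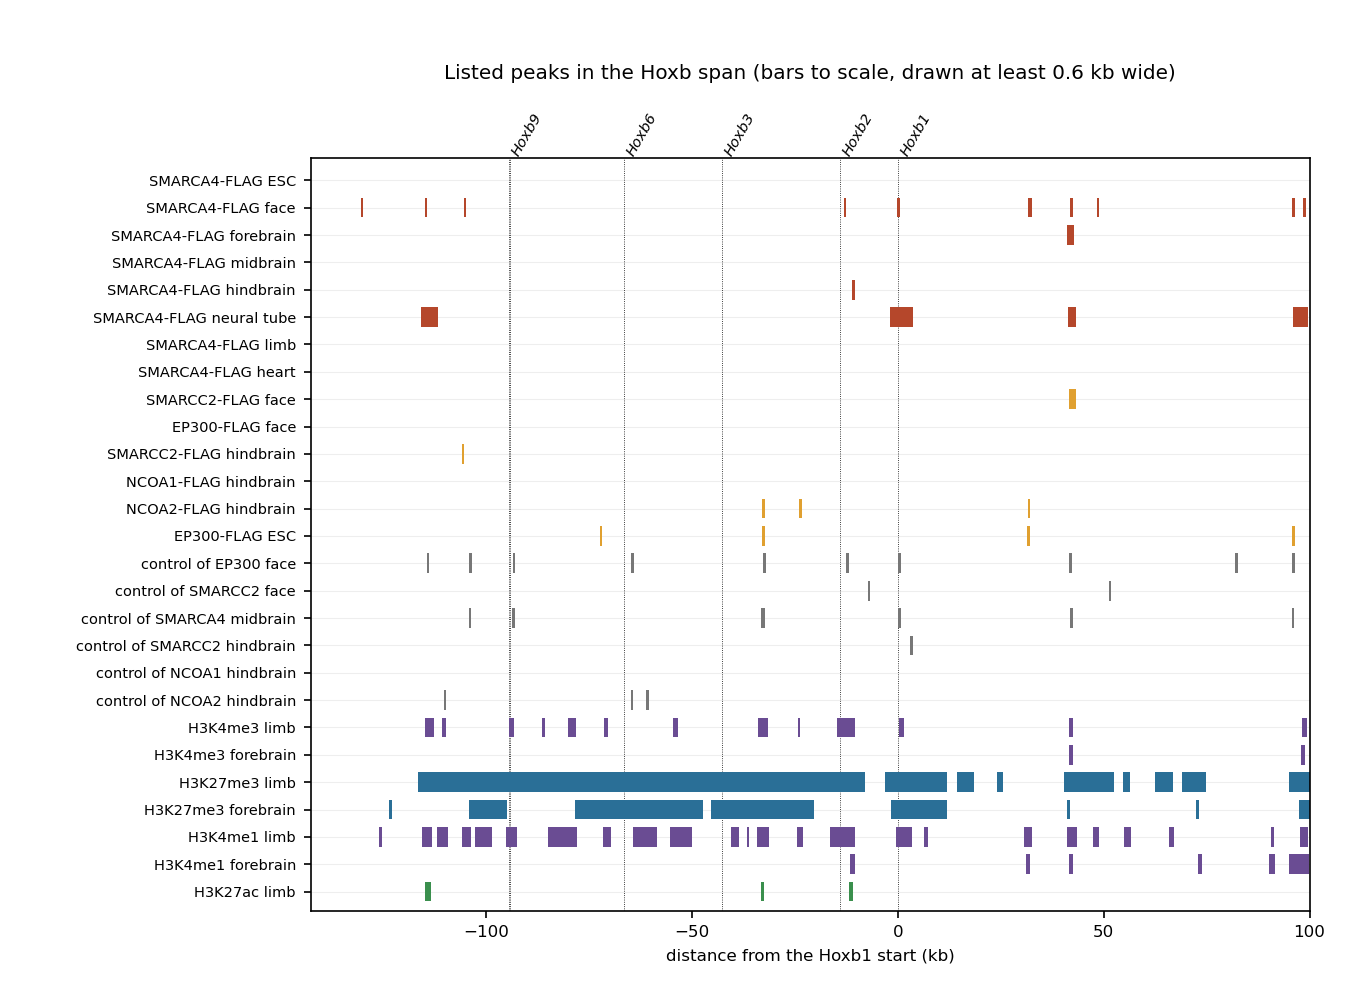
Peaks and regions of every list in the Hoxb span (rows) by distance in kb from the Hoxb1 start, with dotted lines at gene starts. SMARCA4 peaks of face, forebrain and neural tube meet about 41 kb beyond Hoxb1, in the same place as the SMARCC2 face peak and 2 control peaks.

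Among member starts, SMARCA4 of face was within 1 kb of 3 of 5 (Hoxb1, Hoxb2 and Hoxc6), against 74.0% of all genes with a start. SMARCA4 of neural tube was at 1 of 5 (Hoxb1), against 54.8%. Members and other genes were placed through coactivator and control peaks of these data, so shares for such lists are not independent of the placing. The face peak at Hoxb1 (chr11:96226903-96227215) held the start, and so did the 5.45 kb neural tube peak (chr11:96225250-96230700). The peak at Hoxb2 began 969 bp away and that at Hoxc6 779 bp away, both close to the 1 kb limit. With the start inside a peak as the criterion, 1 of 5 members remained, Hoxb1. The Hoxb2 peak overlapped no control, whereas the face peak at Hoxc6 overlapped the SMARCA4 midbrain control. The neural tube peak at Hoxb1 overlapped the controls of SMARCA4 midbrain, EP300 face and SMARCC2 hindbrain. The face peak at Hoxb1 met the SMARCA4 midbrain control only at its last bases, as that control peak began at 96227213. Hoxc9, Hoxb3 and the bracketed Hoxc8 had no SMARCA4 peak within 1 kb in any tissue.

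No placed member had a peak of the other 6 SMARCA4 lists within 1 kb. The shares of all genes in those lists were 6.76% in ESC, 30.8% in forebrain, 2.18% in midbrain, 18.3% in hindbrain, 26.8% in limb and 21.4% in heart. The other tagged proteins also had 0 of 5. Their shares of all genes were 26.8% for SMARCC2 face, 19.3% for EP300 face and 34.8% for EP300 ESC. In hindbrain they were 0.555% for SMARCC2, 5.09% for NCOA1 and 21.2% for NCOA2. Of the controls, that of SMARCA4 midbrain was at 3 of 5 starts (Hoxb1, Hoxc6 and Hoxc9), against 66.4%, and that of EP300 face at 1 of 5 (Hoxb1), against 65.2%. The controls of SMARCC2 face, SMARCC2 hindbrain, NCOA1 and NCOA2 had 0 of 5, against 0.293%, 2.69%, 2.65% and 25.8%.

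**Figure D5:**
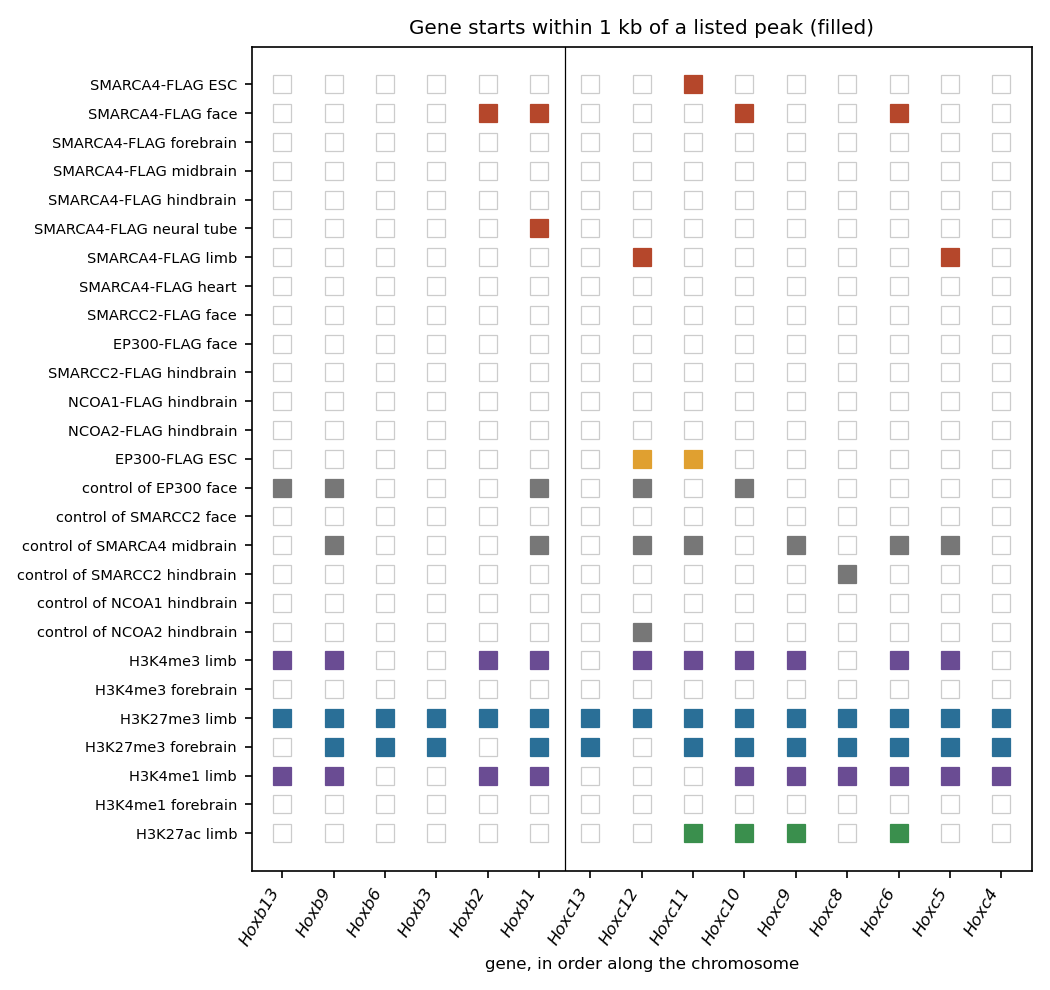
Hox gene starts (columns, in chromosome order) within 1 kb of a peak of each list (rows), filled where there is one, with Hoxc8 and Hoxc10 at their bracketed starts. The bracket of Hoxc8 came from its SMARCC2 hindbrain control peak and that of Hoxc10 from its EP300 face control peak. Those control squares are therefore filled by construction. Limb H3K27me3 is filled for all 15 genes shown, and forebrain H3K4me3 and H3K4me1 for none.

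Merged over tissues, the SMARCA4 peaks made 10 regions in Hoxb and 9 in Hoxc. In Hoxb 6 and in Hoxc 7 were found in 1 tissue only, against 68.5% of 52768 regions on all chromosomes. A control peak lay over 4 of 10 in Hoxb and 7 of 9 in Hoxc, against 33.7%. H3K4me3 of limb or forebrain lay over 6 and 9, against 35.9%, and H3K27me3 over 8 and 9, against 18.7%. Limb H3K27me3 alone covered 65.3% of the Hoxb and 79.7% of the Hoxc span, so most places there lie under it. Without the hindbrain list there were 9 regions in each span, 5 and 8 of them of 1 tissue. All 4 Hoxb regions shared by tissues lay over a control peak, and in Hoxc 1 of 2 did. The share of shared regions over a control on all chromosomes is not given here, so these counts describe the spans only. The neural tube peaks, which are wide (median 2250 bp over the list), join neighbouring face peaks. Without the forebrain, neural tube and limb lists, 11 regions of Hoxb were of 1 tissue.

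The region shared by the most tissues was chr11:96268250-96270400, 41.2 kb beyond Hoxb1. It held SMARCA4 peaks of face (rank 13490 of 35099), forebrain (5358 of 7349) and neural tube (13610 of 14362). The SMARCC2 face peak there had 95 tags, a fold enrichment of 4.37 and a false discovery rate of 0.540% in the authors' deposited table. Controls of EP300 face (15 tags) and of SMARCA4 midbrain (12 tags) had peaks there as well. H3K4me3, H3K4me1 and H3K27me3 of both limb and forebrain overlapped it. At the far end of the Hoxb span, face and neural tube SMARCA4 and an EP300 ESC peak fell in a region that held the start of Skap1, a T cell adaptor gene, again over peaks of 2 controls.

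Another Hoxb site was free of control peaks. At 31.7 kb beyond Hoxb1 a face SMARCA4 peak (chr11:96258758-96259629) overlapped an NCOA2 hindbrain peak of 9 tags, and an EP300 ESC peak of 5 tags lay just before it. Limb H3K4me1 covered it, forebrain H3K4me1 overlapped part of it, and neither H3K4me3 nor H3K27me3 overlapped it, which makes it 1 of 2 Hoxb regions outside H3K27me3. The other was a face peak 16.2 kb from the AK078566 start, under no histone region. The single hindbrain SMARCA4 peak of Hoxb (19 tags, score 54.3, fold 8.31 in the deposited table) stood 3.06 kb from the Hoxb2 start. No control peak overlapped it, whereas H3K27me3, H3K4me3, H3K4me1 and H3K27ac of limb and H3K4me1 of forebrain did. NCOA2 hindbrain had its peak of highest score in the spans (22 tags, score 93.6) 9.55 kb from Hoxb3. An EP300 ESC peak, all 4 limb marks, forebrain H3K27me3 and control peaks of 31 tags (SMARCA4 midbrain) and 10 tags (EP300 face) overlapped that interval.

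At the Hoxc genes SMARCA4 peaks of limb, face and ESC stood. Limb SMARCA4 covered the starts of Hoxc12 (chr15:102766750-102768250) and Hoxc5 (chr15:102843750-102846200). Both overlapped peaks of the EP300 face and SMARCA4 midbrain controls, and at Hoxc12 those control peaks had 46 and 36 tags. Face SMARCA4 stood 779 bp from Hoxc6 and at the bracketed Hoxc10. The ESC peak began 1 bp from the Hoxc11 start and was of 6 tags with a score of 50.8, close to the lowest score of 50.0 in the list. EP300 ESC peaks of 13 and 7 tags lay 399 bp from Hoxc12 and 244 bp from Hoxc11. Neural tube SMARCA4 had its 2 Hoxc peaks outside the row of gene starts, 21.6 and 51.3 kb beyond Hoxc4.

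The farther of these was the peak of highest rank in the spans for SMARCA4. The neural tube peak chr15:102915700-102918700 had rank 693 of 14362, and the face peak inside it rank 9277 of 35099. EP300 ESC had a peak of 10 tags there. Control peaks stood there too, with 34 tags and a score of 243 for SMARCA4 midbrain, 11 tags and 110 for NCOA2, and 9 tags and 51.5 for EP300 face. For the midbrain and NCOA2 controls these were the highest scores in the spans. Face and hindbrain SMARCA4 met 60.3 kb from the Smug1 start, over no control and over H3K4me3, H3K27me3 and H3K4me1 of both limb and forebrain. SMARCC2 hindbrain had 3 peaks of 7 to 9 tags in Hoxc and none overlapped a control.

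Other genes of the Hox pathway were read from fixed lists. Of 5 placed HOXA genes, 4 had limb H3K27me3 within 1 kb, and of 3 placed HOXD genes, 3, against 29.0% of all genes. Forebrain H3K4me3 was at 1 of 3 HOXD starts (Hoxd1), whereas none of the 5 members or of the 8 other placed Hoxb and Hoxc genes had it. Limb H3K27ac was at 4 of 5 HOXA and 1 of 3 HOXD starts, against 55.0%. Of 15 placed cofactors and upstream regulators, 13 had face SMARCA4, against 74.0% of all genes, 12 had forebrain H3K4me3, against 73.3%, and 11 had limb H3K27me3, against 29.0%. The SMARCA4 midbrain control was at 12 of the same 15 genes and the EP300 face control at 9. Meis1, which encodes a HOX partner, and the retinoic acid receptor genes Rara and Rarg had SMARCA4 in 5 tissues each, hindbrain among them for Meis1. Of 14 placed Polycomb genes, 14 had face SMARCA4 and forebrain H3K4me3, against 74.0% and 73.3%. The EP300 face control was at 14 of these 14 genes and the midbrain control at 12. Ezh2, the H3K27 methyltransferase, had SMARCA4 in 6 tissues, hindbrain among them.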

How the data were processed

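ChIP-seq peak lists of 30 samples were used. The aligner was BWA (version not given) and the build mm9, per the submitters' processing notes. What software called the peaks is not given in the sources used here. Of the lists, 16 are deposited tables that give, per the file headers, the count of tags, a score, a ratio of fold enrichment, the false discovery rate as a percent, and the nearest gene with its distance. The other deposited lists hold positions and a rank. Every score in the authors' tables was at least 50.0, so weaker peaks are not listed. Library depth is unknown beyond the tags per peak.

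The members and gene lists were chosen with earlier results of these data known. A gene start was derived from summit and distance where at least 2 peaks agreed, which placed 18934 of 23432 transcript names with 0 conflicts. Genes without such peaks are in no share of all genes. The design spoke of 7 members with a start, and 5 had one. Some results on the HOXA and Polycomb lists are not reported here. Overlap meant at least 1 bp, and a start had a peak when it lay within 1 kb. Named genes were all members, placed genes of both clusters and nearest genes of SMARCA4 regions. Single peaks were described where they lay at a member start, had a high score or rank in a span, or formed regions of the most tissues or of 1 tissue outside H3K4me3. The length of all chromosomes was taken as 2637 Mb, the sum of the last listed positions. Intervals are exact binomial (scipy 1.17.1) and cover counting error only. Scripts used Python 3.11.15 and were tested on simulated data. The alternatives varied the flank, the distance, the threshold, list length, merging and overlap with controls.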

Additional observations from a re-analysis of the deposited data

How the results depend on the processing

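Of 135 alternative values for 34 results, 75 stayed within 1.5 times the value reported. Flanks of 50 kb gave 9 SMARCA4 peaks in Hoxb and 6 in Hoxc, and flanks of 200 kb gave 28 in Hoxc. The stricter threshold left 2 and 3, leaving out peaks over a control or input left 8 and 3, and equal list lengths left 0 and 1. Members with a SMARCA4 peak fell from 3 to 1 with the start inside a peak, to 0 at the stricter threshold and to 1 without peaks over controls. Members with limb H3K4me3 fell from 4 to 1 at the stricter threshold. Limb H3K4me3 covered 5.17% of Hoxb with flanks of 200 kb, 17.3% with no flank and 0% in the upper 50% of ranks. In Hoxc it covered 22.5% with flanks of 50 kb, 34.7% with no flank and 7.23% in those ranks. Forebrain H3K4me3 covered 0% of Hoxb with no flank and 0% in the upper 50% of ranks, and in Hoxc 2.14% with flanks of 200 kb, 3.13% with no flank and 0% in those ranks. H3K27me3 of limb covered 52.5% of Hoxc with flanks of 200 kb. H3K27me3 of forebrain covered 56.1% of Hoxb with no flank, and 35.2% of Hoxc with flanks of 200 kb and 99.1% with none. SMARCA4 regions numbered 5 in Hoxb without the face list, and 0 in Hoxb and 1 in Hoxc at equal lengths. The flank and list changes alter the bases or peaks read by construction, and for the rest the cause was not tested. The alternatives without the hindbrain list and with gaps of 5 kb joined were chosen after seeing the data.

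No paired analysis was possible because each group has 1 library. The tags behind the peaks of the spans were few, from 5 to 46 outside SMARCC2 face, so a list without a peak here does not show that the factor was absent. The 14 lists without tags or scores give no depth at all.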

Other observations

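In the 3 tables with at least 8 peaks in the spans, the median of the authors' conservation score was higher there than over the list. The median score of the 8 EP300 ESC peaks was 517.5 against 395.0 for all peaks of the list. For the 21 peaks of the EP300 face control it was 563 against 386, and for the 19 of the SMARCA4 midbrain control 536 against 423.0. Every peak of these 3 sets in the spans had a score above 0. Over the whole lists, 8544 of 10356 EP300 ESC peaks did, 22941 of 28895 of the EP300 face control and 17334 of 19772 of the midbrain control. The 2 peaks of SMARCA4 hindbrain had a lower median, 352.0 against 406.0. No test was made, since peaks of 1 cluster share their surroundings.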
